A study of Mus musculus with 6 samples.

Results

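In macrophages treated with lipopolysaccharide (LPS), 2304 sites carried a peak of the coactivator p300 that was not called in untreated cells, at places where the transcription factor PU.1 already had a peak before the stimulus. The p300 peaks of both conditions on chromosomes 1 to 19 and X were merged into 19879 sites. Of these, 7568 overlapped a peak of the LPS list alone. The 2304 sites were those among them that also overlapped a PU.1 peak of untreated cells by at least 1 bp. They made up 30.4% of the LPS-only sites (exact 95% interval 29.4 to 31.5) and 11.6% of all merged p300 sites. Of the 2304, 1598 (69.4%, 67.4 to 71.2) also overlapped a peak of histone H3 mono-methylated at lysine 4 (H3K4me1) in untreated cells, and 706 did not. Among other p300 sites with untreated PU.1, 83.4% of those in both p300 lists had such a peak. The share was 77.0% at those in the untreated list alone.

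The study used chromatin immunoprecipitation with sequencing in primary macrophages grown from the bone marrow of female Fvb mice and taken on day 7 of differentiation. The groups were p300 after LPS (10 ng/ml for 2 h; 2 replicate libraries) and p300 without treatment (2 libraries), then PU.1 after LPS and PU.1 without treatment (1 library each). H3K4me1 and input DNA were measured in untreated cells only (1 library each). All cells grew in medium conditioned by L929 cells, a source of macrophage growth factor, and no genotype or strain other than Fvb entered any group. The libraries held 5744811 to 7828655 reads of 36 bp. The p300 libraries were weakly enriched and unequal: 2.31% and 5.49% of distinct reads lay in the LPS p300 peaks for LPS replicates 1 and 2, and 1.44% and 6.20% in the untreated p300 peaks for untreated replicates 1 and 2, beside 0.875% and 0.872% of input reads in the same lists. Each p300 peak list was called by the authors on both replicates merged, so an LPS-only site is one without a called untreated peak, not one shown to lack p300.

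p300 is a histone acetyltransferase that transcription factors bring to enhancers, and its peaks are widely used to locate active ones. PU.1 is an ETS-family factor that macrophages need to form and keep their identity, and it opens chromatin at many of their enhancers. H3K4me1 marks nucleosomes around enhancers, including ones that are primed and not yet active. LPS, a glycolipid from the outer membrane of Gram-negative bacteria, acts through the receptor TLR4 and turns on transcription factors of the NF-kB, AP-1 and IRF families.

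The sites were compact and PU.1 sat near their middle. Their median width was 614 bp, and the untreated PU.1 peak under them had a median width of 491 bp. The median distance between the centre of the p300 site and the centre of the untreated PU.1 peak was 79 bp (quartiles 36 and 164 bp), and at 2009 of 2304 sites (87.2%, 85.8 to 88.5) the p300 centre lay inside the PU.1 peak. That share was 92.4% at p300 sites in both lists with untreated PU.1 and 93.9% at untreated-only ones. The rule used the overlap and not this distance. Sites with and without H3K4me1 were alike in this respect, with medians of 81 and 75.5 bp. At p300 sites in both p300 lists that carried untreated PU.1 (3914 sites) the median distance was 81 bp. Before LPS, PU.1 at the 2304 sites was weaker than at those 3914: the authors' untreated PU.1 score, 10 times the -log10 p-value of their peak caller, had a median of 175 against 287. The 63559 PU.1 peaks of untreated cells outside p300 sites had a median of 115. No test was made between these classes, since each list came from 1 library or 1 pool.

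The increase of p300 chose the sites, so its values are a description. The median site with H3K4me1 had 13.0 and 13.7 normalised p300 reads in LPS replicates 1 and 2, against 7.44 and 6.26 in untreated replicates 1 and 2. The median site without H3K4me1 had 11.6 and 11.1 after LPS, against 5.58 and 5.12 untreated. Normalised reads are distinct reads of a site scaled by the median of ratios over all sites. Both kinds of site thus held reads in the untreated p300 libraries. In untreated replicate 2 the density of p300 reads in all 2304 sites was 3.70 times that of flanks 1 to 3 kb away (exact interval 3.64 to 3.75), and in untreated replicate 1 it was 1.64 times (1.60 to 1.67). In LPS replicates 1 and 2 it was 3.79 and 6.77 times. Input gave 1.54 times, so by this ratio untreated replicate 1 lay just above input and untreated replicate 2 well above it. As shares of distinct reads, the sites held 0.164% of untreated replicate 1 and 0.480% of untreated replicate 2, beside 0.189% of input. By that measure untreated replicate 1 was not above input. Normalisation gave this library a size 30.6% of that of untreated replicate 2, which raised its normalised reads. At the p300 sites in both lists with untreated PU.1 the untreated replicates gave 2.46 and 7.85 times.

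**Figure D1:**
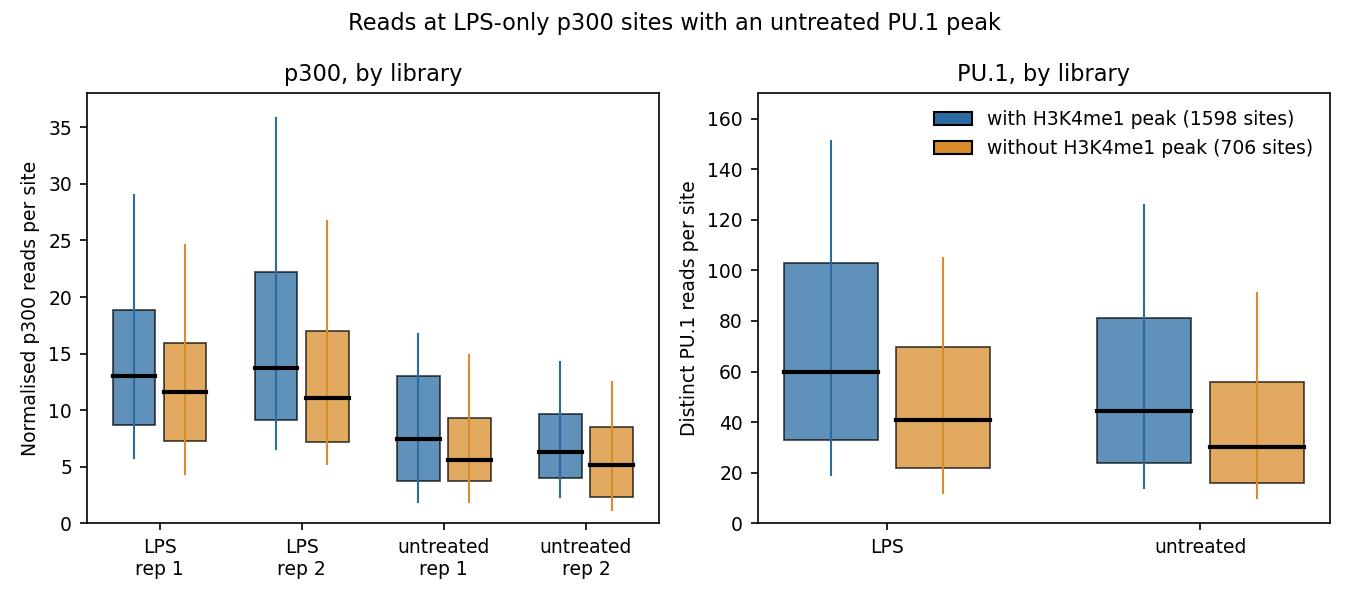
Reads per site at the 1598 sites with and the 706 sites without an untreated H3K4me1 peak. Left, normalised p300 reads by library; right, distinct PU.1 reads by library. Boxes span the quartiles over sites, the thick line is the median and the thin line runs from the 10th to the 90th percentile; they show spread over sites, not replicate error. Median p300 reads lie between 11.1 and 13.7 in the LPS libraries and between 5.12 and 7.44 in the untreated ones.

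Of the 2304 sites, 2302 had at least 10 p300 reads over the 4 libraries and were fitted with all other p300 sites by limma voom. Their median log2 fold change was 1.03 (1.04 with H3K4me1 and 1.00 without), beside 0.00 over all 19727 sites fitted. The test called 180 of them higher after LPS (7.82%; 131 with and 49 without H3K4me1) at an adjusted p below 0.05, beside 1.97% of all sites. It called 0 lower, beside 0.213% of all sites. At an unadjusted p below 0.05 limma voom had 783 of the 2302 higher and 0 lower, and the share of all sites at that threshold was not counted. Both LPS libraries lay above both untreated ones at 1503 sites (65.3%), beside 26.9% of all sites. Since the rule asked for a p300 peak after LPS and none before, these shares and counts say nothing about the sites beyond the rule. The calls rested on single libraries and on the scaling: 0 sites were called without LPS replicate 1, without LPS replicate 2 or without untreated replicate 2, 229 without untreated replicate 1, and 0 with total reads as library size. Without LPS replicate 1, LPS replicate 2, untreated replicate 2 or untreated replicate 1 the median log2 fold change of the sites was 1.12, 1.03, 0.71 and 1.07. Over all sites fitted it was 0.13, 0.14, -0.17 and -0.12. With total reads as library size 175 of the 2302 had an unadjusted p below 0.05 by limma voom, all of them higher, again without a share of all sites.

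The 5 sites of each kind with the highest LPS p300 scores show the range of the response, and they too were chosen on p300. The highest score of all fell on a site without H3K4me1, chr2:144539980-144541271 (mm9), which had 101 and 155 normalised p300 reads in the LPS replicates, against 1.86 and 1.71 in the untreated replicates. The log2 fold change there was 5.81 ± 1.00 (SE, with an adjusted p of 1.25e-05 by limma voom). PU.1 had 91 reads there after LPS against 15 untreated, a scaled ratio of 5.83 (3.35 to 10.8), while H3K4me1 and input had 4 reads each within 1 kb. Before LPS this site had a called PU.1 peak with a score of 125, on 15 reads in the site. With 4 reads each, H3K4me1 was not seen above input, though so few reads cannot show its absence. Among sites with H3K4me1, the highest score was at chr1:140219125-140220303, with 85.5 and 125 normalised p300 reads after LPS against 11.2 and 16.5 untreated (log2 fold change 2.76 ± 0.58, SE; limma voom, adjusted p = 0.000856). There PU.1 was strong in both states, with 80 reads after LPS and 69 untreated (ratio 1.11, 0.797 to 1.56). At chr11:20945758-20947419, also with H3K4me1, p300 had 100 and 130 normalised reads after LPS against 26.0 and 9.68 untreated, and PU.1 had 146 and 123 reads (ratio 1.14, 0.891 to 1.46). At both of these sites the PU.1 interval included 1, while neither LPS p300 value overlapped the untreated ones.

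The change of PU.1 varied among the other top sites. The site chr1:164095176-164095613, with H3K4me1, had 53.6 and 70.4 normalised p300 reads after LPS against 1.86 and 2.85 untreated (log2 fold change 4.32 ± 0.88, SE; adjusted p = 0.000406 by limma voom). It had 103 PU.1 reads after LPS against 52 untreated (ratio 1.90, 1.35 to 2.71). At chr19:34714629-34716006, with H3K4me1, p300 had 78.2 and 113 against 24.2 and 5.12 normalised reads, and PU.1 had 91 against 19 reads (ratio 4.60, 2.78 to 7.99). The untreated PU.1 peak there was centred 445 bp from the p300 centre. On chromosome 16, without H3K4me1, the sites chr16:65450982-65451660 and chr16:23609595-23610510 had 83 and 137 PU.1 reads after LPS against 69 and 100 untreated (ratios 1.16 and 1.32, lower bounds 0.830 and 1.01), and log2 fold changes of p300 of 2.44 and 2.07. The 10 sites thus ran from PU.1 ratios with an interval spanning 1 to a ratio of 15.9. All 10 were called by limma voom, and none was called without LPS replicate 1, without LPS replicate 2 or without untreated replicate 2. Of the 14 named sites called in all, the fold moved by over 1.5 times at 10 without untreated replicate 2, at 2 without untreated replicate 1, at 2 without LPS replicate 1 and at 1 without LPS replicate 2. Without untreated replicate 2 the log2 fold change at the chromosome 19 site was 1.81, against 3.46 with all libraries, and at chr16:65450982-65451660 it was 3.55.

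**Figure D2:**
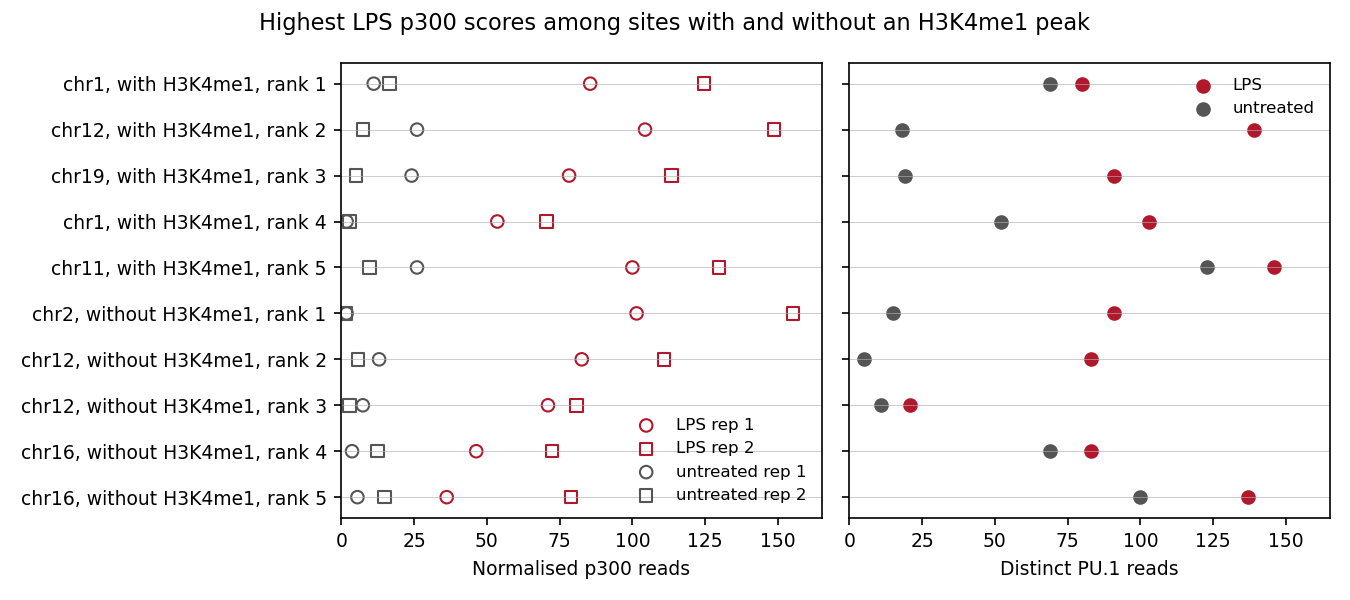
The 5 sites with and the 5 without an H3K4me1 peak that had the highest LPS p300 scores, named by chromosome and rank of score. Left, normalised p300 reads in each library; right, distinct PU.1 reads in the single LPS and the single untreated library. LPS p300 values lie above the untreated values at each of the 10 sites, while PU.1 reads range from nearly equal (80 and 69) to far apart (83 and 5).

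A stretch of chromosome 12 held 3 of these 10 sites. Runs were formed by joining sites within 10 kb of each other: 2019 sites stood alone, 120 runs held 2 sites, 9 held 3, 3 held 4, and 1 run held 6. The run of 6, singled out after its values were seen, spanned 21592 bp (chr12:27123941-27145532), and 3 of its 6 sites had an H3K4me1 peak. Of these, 4 had LPS p300 scores of 1202.44 to 1636.29, beside a median of 75.4 over the 2304 sites. At chr12:27138491-27141886, with H3K4me1, p300 had 104 and 149 normalised reads after LPS against 26.0 and 7.40 untreated (log2 fold change 3.34 ± 0.60, SE; adjusted p = 2.45e-05 by limma voom). PU.1 had 139 reads after LPS against 18 untreated (ratio 7.42, 4.53 to 12.9). At chr12:27126348-27128891, without H3K4me1, p300 had 82.6 and 111 against 13.0 and 5.69 (log2 fold change 3.71 ± 0.61, SE; adjusted p = 3.77e-06 by limma voom). PU.1 had 83 against 5 reads (ratio 15.9, 6.57 to 50.4). At chr12:27144542-27145532, without H3K4me1, p300 had 71.0 and 80.9 against 7.44 and 2.85, and PU.1 had 21 against 11 reads (ratio 1.83, 0.845 to 4.21) with no PU.1 peak called after LPS. The PU.1 ratios of the other 3 sites of the run were 2.28, 2.26 and 2.31, each with an interval above 1. At chr12:27138491-27141886, 3396 bp wide, the untreated PU.1 peak was centred 1219 bp from the p300 centre. At chr12:27126348-27128891 it was centred 1450 bp away and overlapped the site by 31 bp. Such wide sites met the rule through PU.1 away from their centre.

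PU.1 after LPS was not part of the rule. An LPS PU.1 peak was called at 2152 of the 2304 sites (93.4%, 92.3 to 94.4), at 94.6% of those with and 90.8% of those without H3K4me1. The share was 96.0% at p300 sites in both lists with untreated PU.1 and 92.5% at untreated-only p300 sites with untreated PU.1. The median site had 54 PU.1 reads after LPS against 39 untreated. Scaled by depth, the median log2 ratio was 0.24 (quartiles -0.07 and 0.61), 0.25 with H3K4me1 and 0.21 without. The ratio was above 1 at 1586 sites (68.8%), beside 45.1% of the 9645 p300 sites with an untreated PU.1 peak. Summed over all sites, PU.1 had 156913 reads after LPS against 124597 untreated, a scaled ratio of 1.21 (exact interval 1.20 to 1.22). The same sum gave 0.995 at p300 sites in both lists with untreated PU.1 and 0.866 at the 3427 untreated-only p300 sites with untreated PU.1. Their median log2 ratios were -0.02 and -0.21, and PU.1 peaks of untreated cells that had no p300 site gave -0.27. In flanks 1 to 3 kb from the 2304 sites, unscaled PU.1 reads per kb also rose, from 7.15 untreated to 8.77 after LPS. PU.1 density in the sites was 10.85 times that of these flanks untreated and 11.14 times after LPS. It was 9.52 and 9.64 times at p300 sites in both lists with untreated PU.1, and 12.61 and 12.55 times at untreated-only ones. The flanks thus shared most of the rise at the 2304 sites, and its cause was not tested. PU.1 had 1 library per condition, so these are differences between 2 libraries. Intervals cover counting error only, and no test across replicates was possible.

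**Figure D3:**
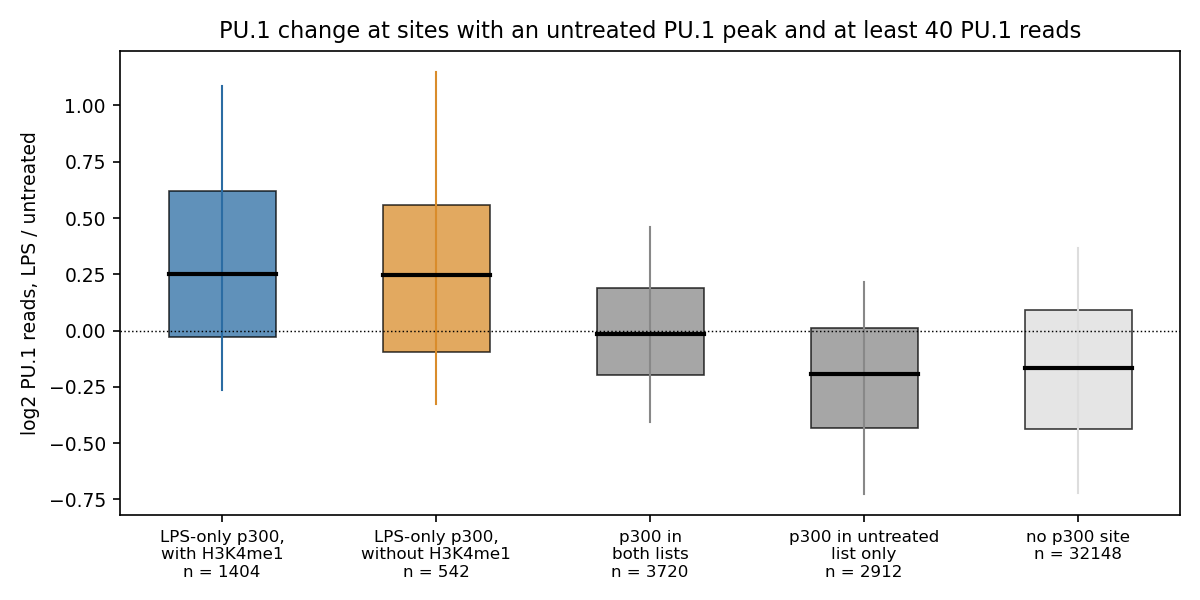
log2 ratio of PU.1 reads, LPS over untreated, at sites with an untreated PU.1 peak and at least 40 PU.1 reads over both libraries. Boxes span the quartiles over sites, thick lines are medians and thin lines run from the 10th to the 90th percentile. Medians are 0.25 at LPS-only p300 sites with and without H3K4me1, -0.01 at p300 sites in both lists, -0.19 at untreated-only p300 sites and -0.17 at PU.1 peaks without p300.

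Site by site, most PU.1 changes were within counting error. Of the 1946 sites with at least 40 PU.1 reads, the exact interval of the ratio lay above 1 at 557 (28.6%), beside 10.9% of the 8578 p300 sites with untreated PU.1 and as many reads. It lay below 1 at 45 (2.31%), beside 10.6%. Intervals above 1 were found at 422 of 1404 sites with H3K4me1 (30.1%) and at 135 of 542 without (24.9%). A ratio of at least 2 was reached by 239 sites (12.3%), beside 3.82%, and a fall of at least 2-fold by 7 (0.36%), beside 1.75%. At the remaining 1344 sites the interval included 1, and a change there was not detectable at this depth.

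Sites with strong PU.1 before LPS changed least. With the sites cut into 4 equal groups by untreated PU.1 reads, the median log2 ratio of PU.1 was 0.49, 0.33, 0.23 and 0.07 from the lowest to the highest group. Untreated reads are also the denominator of the ratio, so part of such an order is built in. In the same groups of untreated reads (up to 21, 22 to 39, 40 to 73, and 74 or more), p300 sites in both lists with untreated PU.1 had medians of 0.26, 0.11, 0.02 and -0.05, and untreated-only p300 sites had -0.09, -0.23, -0.21 and -0.21. The LPS-only sites were thus the highest of the 3 classes in each group. Groups by the authors' LPS p300 score gave PU.1 medians of 0.07, 0.11, 0.27 and 0.52 from the weakest to the strongest p300. The share with a PU.1 ratio above 1 was 56.1%, 58.9%, 74.1% and 86.3%. Across the 1946 sites the log2 change of PU.1 was related to that of p300 with a Pearson's r of 0.453 and a Spearman's rho of 0.424. The relation was not particular to these sites. Pearson's r was 0.448 at p300 sites in both lists with untreated PU.1 and 0.313 at untreated-only ones. It was 0.646 at other LPS-only p300 sites and 0.595 over all merged p300 sites, each with at least 40 PU.1 reads. Taken from p300 replicate pairs 1 and 2 separately, r at the 1946 sites was 0.134 and 0.461. Sites share libraries, depth and the 2 PU.1 libraries, so r is a description only. At the 180 sites called for p300 the median PU.1 log2 ratio was 0.79, with 167 above 0, and at the 2122 not called it was 0.20, with 1418 above 0.

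The sites with the most secure PU.1 gains were spread over strong and weak p300. At chr16:24766285-24767188, with H3K4me1, PU.1 had 159 reads after LPS against 20 untreated (ratio 7.64, 4.78 to 12.8), and p300 had 17.4 and 20.2 normalised reads against 3.72 and 2.85 (log2 fold change 2.51 ± 0.75, SE; adjusted p = 0.0430 by limma voom, 0.0542 with limma-trend and 0.0501 without the read filter). At chr5:92775895-92778254, with H3K4me1, PU.1 had 149 against 21 reads (ratio 6.82, 4.30 to 11.3), and p300 had 69.6 and 119 against 20.5 and 6.83. That site was 2360 bp wide, and its untreated PU.1 peak was centred 935 bp from the p300 centre. PU.1 reads were counted over the whole site, so the gain need not lie at that peak. At chr10:20943984-20944530, without H3K4me1, PU.1 had 78 against 10 reads (ratio 7.49, 3.87 to 16.2), and p300 had 15.9 and 26.1 against 9.30 and 2.85 normalised reads. At chr16:45288540-45288975, also without H3K4me1, PU.1 had 56 against 7 reads (ratio 7.69, 3.50 to 20.0), and p300 only 7.24 and 6.52 against 3.72 and 0.569 normalised reads (limma adjusted p = 0.252). PU.1 moved the other way at few sites. The fall with the lowest upper bound was at chr19:52953292-52953657, with H3K4me1, where PU.1 had 8 reads after LPS against 33 untreated (ratio 0.233, 0.0929 to 0.514). There p300 had 4.35 and 4.57 normalised reads after LPS, between 7.44 and 0.569 in the untreated replicates. The next by upper bound were chr7:25230339-25230858 (28 against 63 reads, ratio 0.427) and chr2:163057639-163058629 (66 against 110 reads, ratio 0.576). Both had H3K4me1, and neither was called for p300 (limma adjusted p = 0.271 and 0.707).

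**Figure D4:**
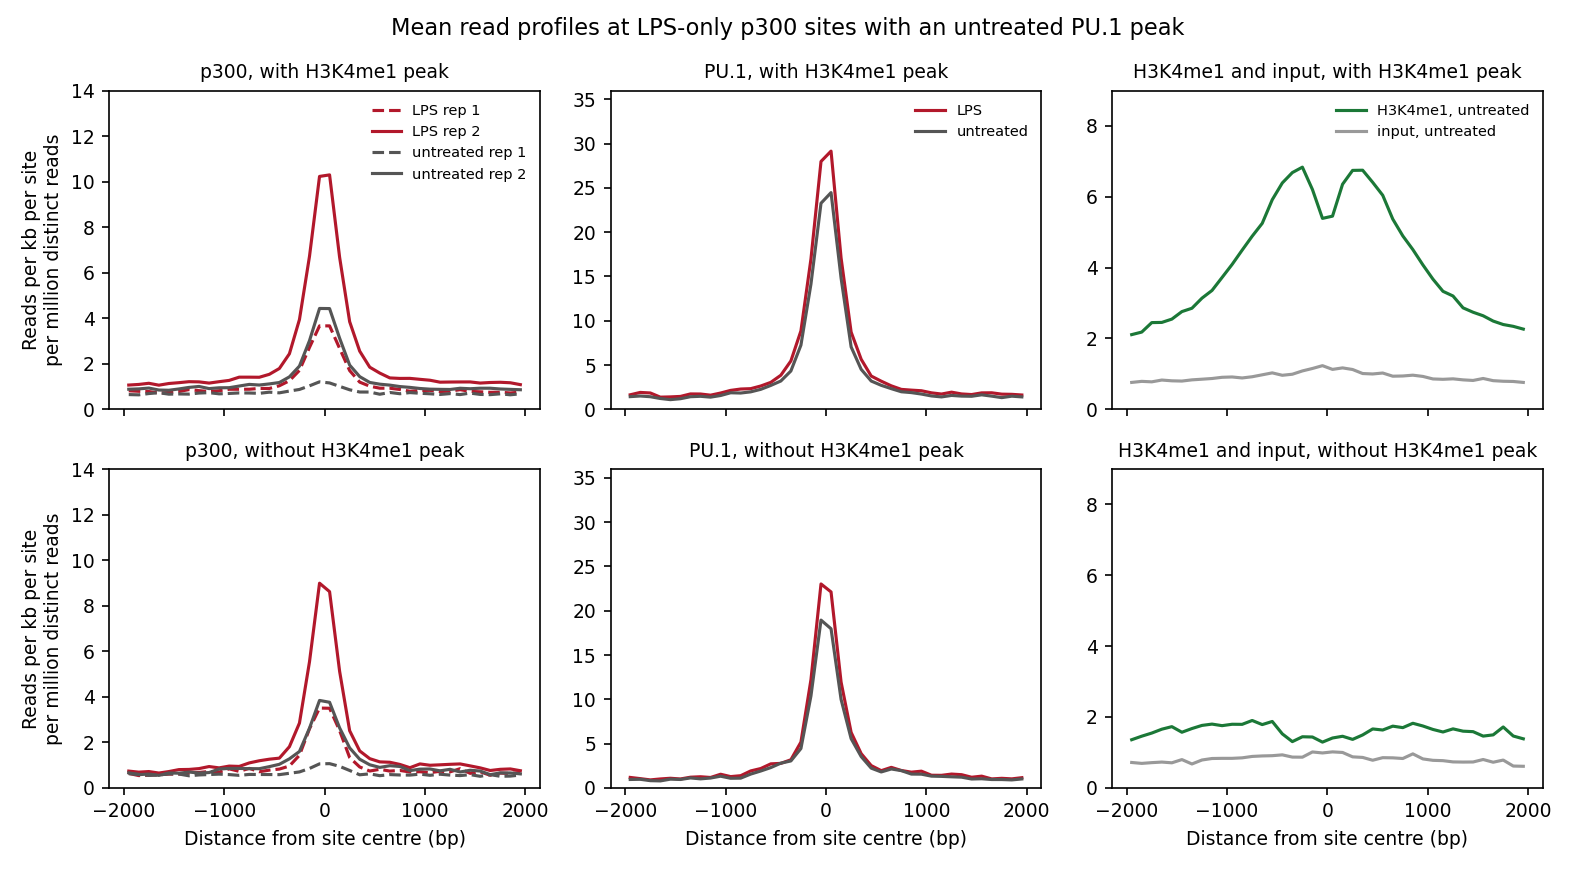
Mean read density around the centre of the p300 site, in reads per kb and site scaled to the library's distinct reads, for sites with (top) and without (bottom) an untreated H3K4me1 peak. Columns show p300, PU.1, and H3K4me1 with input. p300 and PU.1 peak at the centre in both kinds of site, H3K4me1 is bimodal in the top row, and it stays near 1.3 to 1.4 at the centre in the bottom row, beside 0.985 to 1.02 for input.

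Both kinds of site differed in their level of H3K4me1 before LPS. Within 1 kb of the centre, H3K4me1 over input had a median log2 ratio of 2.33 at sites with a peak and 0.73 at sites without one. PU.1 peaks of untreated cells that lay outside p300 sites had 1.20. The split was made on the H3K4me1 list, so the gap between both kinds is given by the rule. Sites without a called peak were not all bare: 269 of 706 (38.1%) had at least 2-fold more H3K4me1 than input. Over all 2304 sites the share was 78.6%, beside 54.6% of all p300 sites. It was higher at p300 sites in both lists with untreated PU.1 (86.4%) and at untreated-only ones (83.9%). The nearest H3K4me1 peak to an unmarked site was a median of 1916 bp away, within 500 bp at 27.5% of them and within 10 kb at 70.8%. A peak lay within 1 kb on both sides at 67 of 706 (9.49%). In the body of unmarked sites H3K4me1 density was 0.946 of that in flanks 1 to 3 kb away (0.913 to 0.979), and in marked sites 2.71 times (2.68 to 2.74).

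The extremes show both ends. The highest ratios were at chr2:24631775-24632231, with 94 H3K4me1 and 2 input reads within 1 kb, at chr4:117968220-117968637 (52 and 1 reads) and at chr14:28168213-28168714 (125 and 5 reads). Their PU.1 ratios were 0.859, 0.943 and 1.53, and none was called for p300. The lowest ratios among unmarked sites were at chr8:87185366-87186037, with 1 H3K4me1 and 34 input reads, at chr1:127331007-127331773 (1 and 19) and at chr9:82868674-82869865 (2 and 17). The nearest H3K4me1 peaks lay 851, 1655 and 751 bp from these 3 sites. Across the 1946 sites with at least 40 PU.1 reads, the H3K4me1 ratio had a Pearson's r of -0.028 and a Spearman's rho of -0.039 with the PU.1 change, and of -0.007 and -0.032 with the p300 change. The signs were opposite in marked and unmarked sites. At the 1404 marked sites r and rho with the p300 change were -0.124 and -0.152, and at the 542 unmarked ones 0.218 and 0.271. With the PU.1 change they were -0.123 and -0.132 at marked sites, and 0.069 and 0.095 at unmarked ones. At p300 sites in both lists with untreated PU.1, r with the p300 change was -0.111 at marked and 0.042 at unmarked sites. At untreated-only ones it was negative in both, -0.142 and -0.188, again with at least 40 PU.1 reads. All are descriptions over sites that share the same libraries.

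Marked and unmarked sites both had a trough of H3K4me1 over PU.1 before LPS. Centred on the untreated PU.1 peak, H3K4me1 reads per bp in the inner 200 bp were 0.773 of those 300 to 800 bp away at the 1598 marked sites (exact interval 0.756 to 0.790), while input gave 1.24. At the 706 unmarked sites the ratio was 0.771 (0.724 to 0.821). These sites had no H3K4me1 peak by the rule, while peaks beside them were allowed and lay within 500 bp at 27.5%. Part of their trough is thus built in. It was 0.517 at unmarked p300 sites in both lists with untreated PU.1 and 0.615 at unmarked untreated-only ones. Centred on the p300 site it was 0.925 at marked and 0.812 at unmarked sites. On the PU.1 centre the ratio was 0.502 at marked p300 sites in both lists, 0.714 at marked untreated-only p300 sites, and 1.15 at 27870 PU.1 peaks with H3K4me1 but no p300 site. The LPS-only sites thus lay between PU.1 peaks without p300 and sites with p300 in both states. The depth of the trough followed PU.1. In the 4 groups of untreated PU.1 reads the ratio at marked LPS-only sites was 1.00, 0.890, 0.764 and 0.617. At marked untreated-only sites it was 1.01, 0.820, 0.738 and 0.636, at marked sites in both lists 0.777, 0.604, 0.527 and 0.463, and without p300 1.54, 1.24, 1.07 and 0.861. Within these groups the LPS-only sites were therefore below PU.1 peaks without p300 and above sites in both lists, with intervals apart in every group. The groups do not match PU.1 strength. Reads were counted over the whole p300 site, or over the PU.1 peak where there was no p300 site. The highest group has no upper limit and held 460 marked LPS-only sites and 1986 marked sites in both lists. The intervals of marked LPS-only sites overlapped those of marked untreated-only sites in all 4 groups. Each mark had 1 library, reads and not sites were counted, and no test between classes was made.

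**Figure D5:**
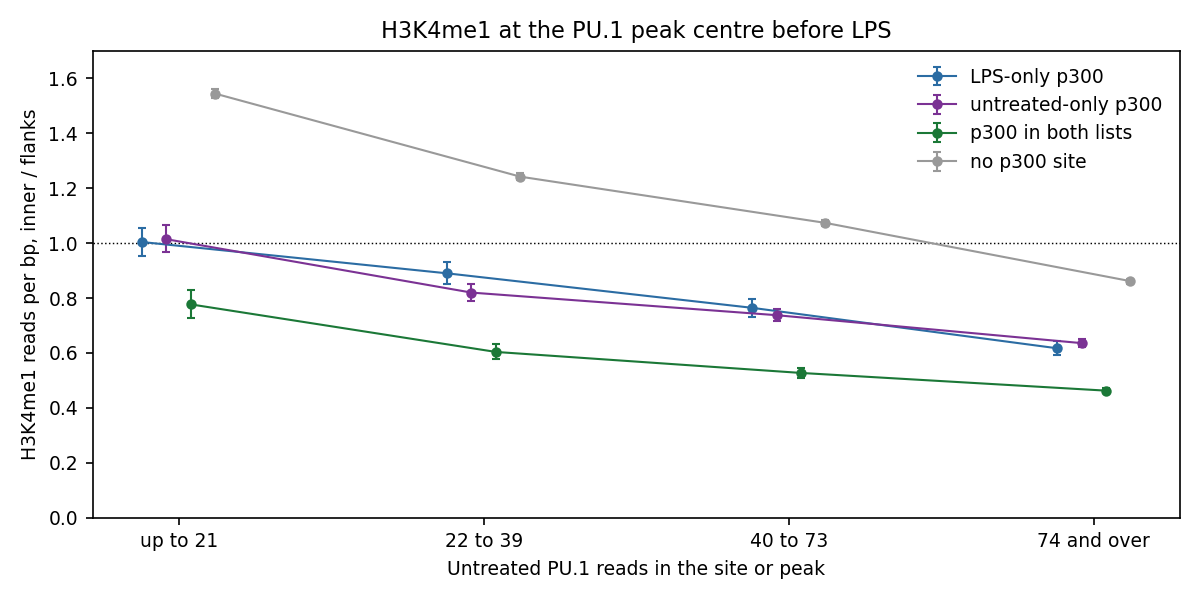
H3K4me1 reads per bp in the inner 200 bp over those 300 to 800 bp away, centred on the untreated PU.1 peak, at sites with an H3K4me1 peak, by untreated PU.1 reads. These were counted over the p300 site, or over the PU.1 peak where there was no p300 site. Points are pooled ratios of each class and bars exact 95% intervals that cover counting error only. The ratio at LPS-only p300 sites runs 1.00, 0.890, 0.764 and 0.617 from the fewest to the most PU.1 reads, below PU.1 peaks without p300 and above p300 sites in both lists in each group.

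Marked and unmarked sites also differed in their surroundings. Another p300 site lay within 10 kb of 48.7% of marked sites (46.2 to 51.2) and of 29.0% of unmarked ones (25.7 to 32.5). The shares also differed in this direction at p300 sites in both lists with untreated PU.1 (54.6% marked, 36.7% unmarked) and at untreated-only ones (44.9% and 29.3%), beside 37.9% of all merged p300 sites. A p300 site present in both lists lay within 10 kb of 20.3% and 8.64%. The intervals of these shares count each site once, although neighbours may not be independent. The count of sites also depends on where a peak threshold falls. The members with the least PU.1 overlap were chr7:19689075-19689435 (4 bp) and chr1:173991855-173993096 (7 bp), with 3 and 8 PU.1 reads after LPS against 1 read each untreated (ratios 2.88, 0.231 to 151, and 7.69, 1.03 to 341). The nearest LPS-only sites left out were chr12:41311173-41311995 and chrX:138843972-138844275, each 3 bp from an untreated PU.1 peak. They had 60 and 2 PU.1 reads after LPS against 43 and 3 untreated.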

How the data were processed

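Aligned reads and peak lists were used as deposited, on mouse build mm9 per the submitters' processing notes; the aligner was not given in the sources used here. Reads were single lines of position and strand. The authors called peaks with MACS, and each deposited score is 10 times the -log10 p-value of a peak, per the description of columns they deposited. p300 replicates were merged by the authors before peak calling, per the series' design text. One PU.1 list, labelled untreated, names LPS in its header, and the label was followed. Counts were made here: 1 read per position and strand, 5' ends moved 100 bp downstream, chromosomes 1 to 19 and X. Distinct reads numbered 5503587 to 6428281 per library.

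p300 counts over merged sites were scaled by median of ratios, which gave untreated replicate 1 a size 30.6% of that of untreated replicate 2. They were compared with limma voom 3.58.1 (R 4.3.3), Benjamini-Hochberg adjusted over 19727 sites with at least 10 reads; the common variance means that SE and p do not measure a site's own spread. The p300 replicates are biological per the series' design text. PU.1 ratios were scaled by total distinct reads with 0.5 reads added for log2 values, and H3K4me1 ratios to input had 1 read added. Intervals are exact (Clopper-Pearson, 95%) and cover counting error only. Python 3.11.15 with numpy 2.4.6, pandas 2.3.3 and scipy 1.17.1 was used.

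Named sites were the 5 of each kind with the highest LPS p300 score, the 3 of each kind with the highest lower bound and the 3 with the lowest upper bound of the PU.1 ratio, the 3 highest and 3 lowest unmarked H3K4me1 ratios, and 2 sites on each side of the overlap rule, chromosome 18 left out. The members, lists and groups were chosen with earlier results of these data known. No sequence and no nearby gene is given, since no genome or annotation of build mm9 was used here.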

Additional observations from a re-analysis of the deposited data

How the results depend on the processing

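The number of sites was 2161 with the p300 centre within 100 bp of PU.1 and 1806 with at least 50% of the site covered, but 974 with a score of at least 100 in every list and 771 with that LPS p300 score. The share with H3K4me1 was 52.7% at the site centre, 77.8% within 500 bp and 54.7% with a score of at least 100. Sites called higher for p300 numbered 180, and 0 with total reads or with background bins for scaling (175 and 131 at an unadjusted p below 0.05) and 0 to 229 when 1 library was left out; 155 to 193 were called with limma-trend, without the read filter, with all reads kept or with a 50 bp shift. With limma-trend 6.73% of the sites were called, beside 1.69% of all sites, and without the read filter 7.16%, beside 1.80%. With all reads kept the shares were 8.38% and 2.30%, and with the 50 bp shift 7.78% and 1.91%. With total reads or background bins 0 of all sites were called higher as well. With the replicate number as a block 378 were called (16.4%, beside 4.54% of all sites), 172 of them among the 180. Replicate 1 libraries deviated together only weakly (r = 0.21), and with 2 pairs the numbers are no more than a hint of pairing. The PU.1 median was 0.27 (marked 0.29) with all reads kept, 0.30, 0.31 (marked) and 0.27 (unmarked) when scaled by the median over PU.1 peaks, and 0.27 at sites with PU.1 in both lists, an alternative chosen after seeing the data like the read groups; with all reads kept 88 intervals lay below 1. The H3K4me1 median was 2.40 (marked) and 0.57 (unmarked) over 500 bp, 1.67 and 2.01 (marked) over 2 kb, and 2.37 (marked) with all reads kept. On the p300 centre the trough was 0.913 over all sites and 0.925 over marked ones, against 0.773 on the PU.1 centre. The p300 log2 fold change turned negative at 7 named sites not called; over the libraries left out it ran from -0.81 to 2.53 (chr19:52953292), -0.27 to 1.77 (chr7:25230339), -0.41 to 0.98 (chr2:24631775), -0.34 to 0.75 (chr4:117968220, -0.0091 with limma-trend), -0.43 to 0.85 (chr1:127331007), -0.048 to 1.84 (chr9:82868674) and -0.37 to 0.69 (chr7:19689075). The H3K4me1 ratio of chr8:87185366 turned to 0.27 over 2 kb. Of the named sites, 14 were called for p300, and all 14 lost the call with total reads, with background bins or without any 1 library other than untreated replicate 1. With limma-trend 11 of them stayed called and the fold moved by over 1.5 times at 5 (up to 2.33 times), and 13 stayed called without the read filter; 113 of the 155 sites called with limma-trend were among the 180. The motif search was not run, since no genome of the build was used here; the cause of these changes was not tested.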

Other observations

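Sites on the X chromosome carried H3K4me1 peaks less often. Of the 57 LPS-only p300 sites with untreated PU.1 on X, 23 had an H3K4me1 peak (40.4%, exact 95% interval 27.6 to 54.2), against 1575 of 2247 on the autosomes (70.1%, 68.2 to 72.0). The shares were 39.3% and 84.1% at p300 sites in both lists with untreated PU.1, and 39.6% and 77.6% at untreated-only ones. At the LPS-only sites the median number of reads within 1 kb was 30 on X and 46 on the autosomes for H3K4me1, and 8 and 11 for input. The median untreated PU.1 reads per site were 38 and 39, and the median log2 ratio of PU.1 was 0.06 and 0.24. The animals were female per the labels. Input reads were thus lower on X as well; their part in the H3K4me1 shares was not tested, and no test between chromosomes was made.

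By chromosome, the share of LPS-only p300 sites that had untreated PU.1 ranged from 24.2% (124 of 513, chromosome 5) to 38.7% (120 of 310, chromosome 16), and chromosome 16 had an H3K4me1 peak at 57.5% of its 120 sites, against 69.4% overall. Besides the chromosome 12 run, 3 runs held 4 sites each, at chr2:10920780-10935344, chr7:133738105-133751033 and chr11:83349085-83364901, and all 4 sites of each had an H3K4me1 peak.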
